A study of Mus musculus with 12 samples.

Results

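The CC chemokines are small secreted proteins that attract leukocytes, and 8 of their genes were followed here in spleen dendritic cells (DCs) with and without microRNA miR-142: Ccl2, Ccl3, Ccl4, Ccl5, Ccl6, Ccl9, Ccl17 and Ccl22. The 8 genes were chosen by name, with earlier results of the same arrays in view, so their values describe these arrays and support no choice of genes. They have 9 probe sets with a single gene symbol, of 28898 such probe sets for 17097 genes, because Ccl9 has 2. All 9 probe sets were kept, and no filter on dim values was applied. CC chemokines bind G protein-coupled receptors of the CCR family on the cells they attract, and one receptor often binds several ligands. DCs release Ccl3, Ccl4, Ccl5 and Ccl22 when they mature, and lipopolysaccharide (LPS), a component of the outer membrane of Gram-negative bacteria, is a classical stimulus that acts through Tlr4 and NF-kB. miR-142 is a microRNA abundant in cells of blood origin, where microRNAs lower the level or translation of transcripts that pair with their seed.

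DCs came from single spleens of male C57BL/6 mice aged 10 weeks, isolated by positive selection. The mice were wild type (WT) or miR-142 knockout (KO) littermates matched for age and sex, and the cells of each genotype were unstimulated or given LPS, with 3 arrays in each of the 4 groups. The dose and duration of LPS, the way miR-142 was deleted and whether the unstimulated and LPS cells of one number came from one mouse are not stated in the sources used. Each value is a log2 signal of an Affymetrix array, so 1 unit is a doubling, and the number of arrays limits the precision. One label disagreed: the samples are described as T cells in their description field, while every other field gives DCs.

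The mature strands of miR-142 show what the KO mice lack. They are given from RefSeq (GRCm38.p6), with the seed, bases 2 to 8, in capitals. The 5p strand lies at chr11:87756867-87756887 and the 3p strand at chr11:87756903-87756925, both on the plus strand.
mmu-miR-142a-5p: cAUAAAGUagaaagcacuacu
mmu-miR-142a-3p: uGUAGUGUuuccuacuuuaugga
No probe set carried the symbol of miR-142 alone, so the genotype labels were not checked against the deleted gene.

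All 8 genes matched RefSeq, with 6 on mouse chromosome 11 and 2 on chromosome 8. Ccl5, Ccl9, Ccl6, Ccl3 and Ccl4 follow each other with 0 other coding genes between neighbours, and 30 coding genes separate Ccl2 from Ccl5. Ccl22 and Ccl17 have 1 coding gene between them. The promoter table held 5 of the 8 genes. The 250 bases before the start of 4 of them are shown, for Ccl3 and Ccl22 because LPS samples were high in both genotypes, and for the neighbours Ccl6 and Ccl9 because their genotype differences had opposite signs. The windows are chr11:83649379-83649628 (minus strand) for Ccl3, chr8:94745434-94745683 (plus strand) for Ccl22, chr11:83593088-83593337 (minus strand) for Ccl6 and chr11:83578637-83578886 (minus strand) for Ccl9. Capitals mark a match to the NF-kB consensus, which was searched on both strands.
Ccl3: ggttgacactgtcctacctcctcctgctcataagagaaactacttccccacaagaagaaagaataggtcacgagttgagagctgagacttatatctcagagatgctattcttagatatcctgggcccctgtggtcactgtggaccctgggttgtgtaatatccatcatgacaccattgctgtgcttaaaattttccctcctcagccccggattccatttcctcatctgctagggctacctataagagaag
Ccl22: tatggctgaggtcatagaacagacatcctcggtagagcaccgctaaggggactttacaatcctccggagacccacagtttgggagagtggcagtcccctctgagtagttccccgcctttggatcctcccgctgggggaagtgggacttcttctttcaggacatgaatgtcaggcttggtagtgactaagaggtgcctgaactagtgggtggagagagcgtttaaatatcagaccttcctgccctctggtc
Ccl6: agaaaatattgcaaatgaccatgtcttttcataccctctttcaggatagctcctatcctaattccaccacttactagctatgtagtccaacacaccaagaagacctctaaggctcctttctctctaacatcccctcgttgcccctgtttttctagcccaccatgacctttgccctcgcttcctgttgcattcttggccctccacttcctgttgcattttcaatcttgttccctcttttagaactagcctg
Ccl9: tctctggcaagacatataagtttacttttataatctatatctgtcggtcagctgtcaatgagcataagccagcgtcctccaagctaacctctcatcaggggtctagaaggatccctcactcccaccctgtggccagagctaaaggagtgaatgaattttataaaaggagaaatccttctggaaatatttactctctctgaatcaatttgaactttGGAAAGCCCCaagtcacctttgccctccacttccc
Among the 5 promoters, Ccl9 alone matched the NF-kB consensus, at the letters GGAAAGCCCC of the printed strand, where the consensus read on the opposite strand, from 35 to 26 bases before the start. The same window held an AP-1 match (TGANTCA) from 53 bases before the start and TATAAA matches from 224, 94 and 92 bases before it, those at 224 and 94 on the opposite strand and those at 94 and 92 overlapping. The core of the interferon-stimulated response element (ISRE) had no match in the 5 windows. Of 32851 mouse promoters of this length, 3.9% matched the NF-kB consensus, 6.75% AP-1, 12.37% TATAAA and 2.98% the ISRE core. A match describes letters and not a bound site. Each pair of the 5 promoters aligned over some short stretch, of 8 to 16 bases in pairs other than Ccl6 and Ccl9. Ccl6 and Ccl9 shared a stretch of 17 bases with 16 identical, shown with the differing base in lower case, at chr11:83593130-83593146 for Ccl6 and chr11:83578638-83578654 for Ccl9. It lay from 59 to 43 bases before the start in Ccl6 and from 18 to 2 in Ccl9.
Ccl6 shared stretch: CTTgGCCCTCCACTTCC
Ccl9 shared stretch: CTTtGCCCTCCACTTCC

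Array medians lay between 2.65 and 2.72. DC markers were present on every array, and the mean log2 signal of the 15 measured of 19 listed (among them Itgax, Flt3, Zbtb46 and Cd74) was 6.24 to 6.57 on 11 arrays and 5.75 on KO LPS array 2. Without LPS the mean was 6.39 to 6.49 in WT and 6.24 to 6.36 in KO arrays. With LPS it was 6.48 to 6.57 in WT and 5.75 to 6.42 in KO arrays. The median KO minus WT difference of the 15 was -0.10 without LPS and -0.25 with it (-0.08 without KO LPS array 2), and 0 passed with all arrays. The part of this difference in the chemokine values was not tested. KO LPS array 2 stood apart: its correlation with any other array was 0.936 to 0.958, against 0.967 to 0.991 among the others. Its Gapdh control probes differed by 3.04 between the 3' end and the middle of the transcript, against 1.53 to 1.86 elsewhere, a measure of RNA quality. Its part in the results was not tested beyond leaving it out, and the chemokine differences that involve LPS-treated KO cells are given with and without it. In bulk RNA, fewer cells of a type and less RNA per cell cannot be told apart.

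Markers of other cell types differed between the genotypes in both directions. Of 11 measured neutrophil markers, 3 were higher in unstimulated KO than in WT cells (Ngp, Camp and Lcn2, all granule proteins), and the same 3 passed after LPS. The median difference of the 11 was 2.85 and 3.00 (2.53 without KO LPS array 2), against -0.00 and -0.03 over all probe sets. Their mean log2 signal per array was 3.34 to 4.51 in the WT arrays and 5.64 to 8.11 in the KO arrays, and their summed signal on the log2 scale was 7.67 to 9.96 in WT and 11.11 to 12.86 in KO. Of 12 natural killer (NK) cell markers, Gzmb, Klra8 and Klra9 were higher without LPS, and these and Eomes were higher with it. The others did not pass, and the median difference of the 12 was 0.87 and 1.07 (1.11 without KO LPS array 2). The markers did not differ alike. Without LPS the WT and KO means were 6.06 and 9.18 for Gzma and 4.59 and 6.22 for Il2rb. They were 6.86 and 7.03 for Klrd1, 5.01 and 5.05 for Klrk1 and 4.32 and 4.35 for Prf1. With LPS the means of Klrk1 and Prf1 were lower in KO than in WT, KO LPS array 2 included. Those of the other NK markers were higher. The mean NK signal per array was 3.79 to 4.42 in WT and 5.39 to 5.60 in KO, and the summed signal was 8.07 to 8.67 and 10.13 to 10.35. Among 15 macrophage and monocyte markers 1 was lower in KO, the metalloprotease Mmp12, by -2.23 ± 0.24 without LPS and -1.77 ± 0.24 with it. The median difference of the 15 was -0.02 and -0.26 (0.10 without KO LPS array 2). Their mean signal per array overlapped, at 5.78 to 6.72 in WT and 5.94 to 6.52 in KO. Of 9 measured B cell and plasma cell markers 1 was lower in KO, Jchain, the joining chain of secreted antibodies, by -4.03 ± 0.42 without LPS (adjusted p 0.0029) and -3.05 ± 0.42 with it (adjusted p 0.0192). The median difference of the 9 was -0.07 without LPS and -0.27 with it (0.11 without KO LPS array 2). Their mean signal, Jchain included, was 5.66 to 5.90 in WT and 4.80 to 5.76 in KO arrays. Their summed signal was 9.19 to 9.61 and 8.34 to 9.28. Of 7 measured T cell markers 0 passed between genotypes in limma, with 0 under an unadjusted p of 0.05 without LPS and 3 with it, and their summed signal was 6.48 to 7.02 in WT and 6.16 to 6.80 in KO arrays. Klra8 and Klra9 passed in all 12 fits that each left out 1 array, and Mmp12 and Jchain did so without LPS. The unstimulated calls of Ngp, Camp, Lcn2 and Gzmb were lost without any 1 unstimulated WT array or unstimulated KO array 1 or 2 (adjusted p 0.0505 to 0.156). The LPS calls of these 4, Eomes, Mmp12 and Jchain were lost without any 1 LPS WT array (0.0583 to 0.175), those of Ngp, Camp, Eomes and Lcn2 also without unstimulated WT array 2 (0.0509 to 0.0724), and that of Lcn2 also without unstimulated WT array 1 or 3, unstimulated KO array 1 or LPS KO array 1 or 2 (0.0518 to 0.0681). The part of these cells in the chemokine values was not tested.

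**Figure D1:**
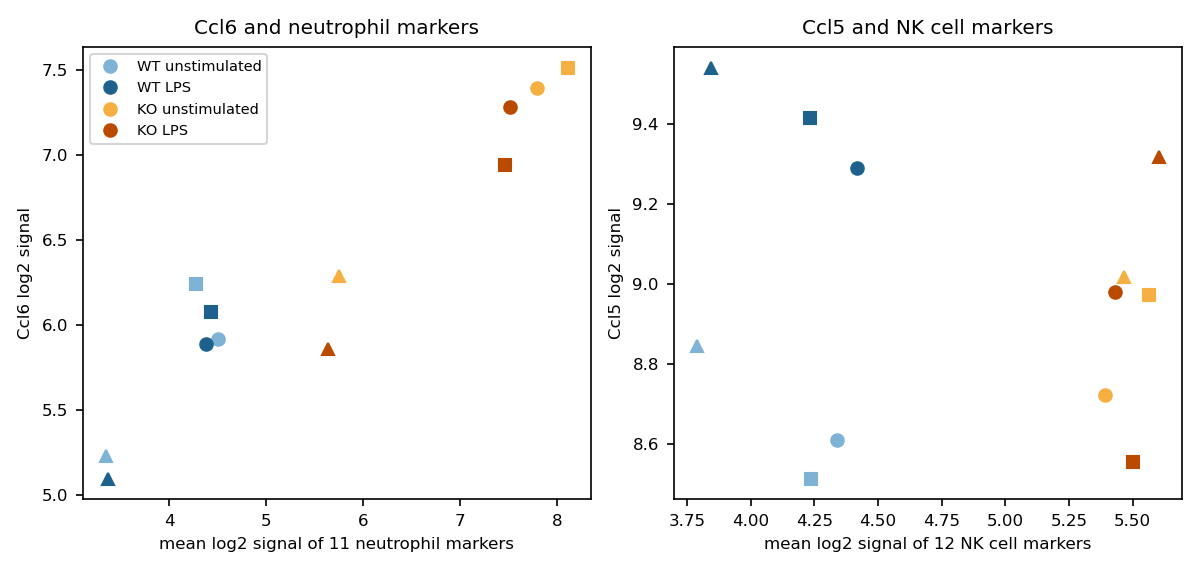
Log2 signal of Ccl6 on each array against the mean log2 signal of 11 neutrophil markers (left). The right panel shows Ccl5 against the mean of 12 NK cell markers. Colours give the group, and circle, square and triangle are its arrays 1, 2 and 3. Neutrophil means were 3.34 to 4.51 in WT and 5.64 to 8.11 in KO arrays, and NK means were 3.79 to 4.42 and 5.39 to 5.60.

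Without stimulation, the KO cells had less Ccl4 than WT cells, and Ccl4 alone of the 9 probe sets passed an adjusted p of 0.05 (limma, Benjamini-Hochberg over all 28898 probe sets). The background was 0.0346% of probe sets called lower and 0.163% in either direction. The arrays of the genotypes did not overlap for 5 probe sets, against 16.5% of all. These were Ccl6, higher in KO (8.82% of all), and Ccl2, Ccl4, the brighter Ccl9 probe set and Ccl22, lower in KO (7.7% of all). The median difference of the 9 was -0.51, against -0.00 over all. After LPS, 0 of 9 passed the limma threshold, while 0.322% of all probe sets passed (0.201% higher and 0.121% lower in KO). Under an unadjusted limma p of 0.05 lay 7 of 9, and 4006 of all 28898. In that comparison Ccl2, Ccl4, the dimmer Ccl9 probe set and Ccl22 were lower in KO with no overlap, against 10.2% of all probe sets, and 0 were higher with no overlap, against 6.89%. Without KO LPS array 2, 0 of 9 passed after LPS, with 0.433% of all probe sets called. The genes were chosen with such values known, so nothing is read from these counts.

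**Figure D2:**
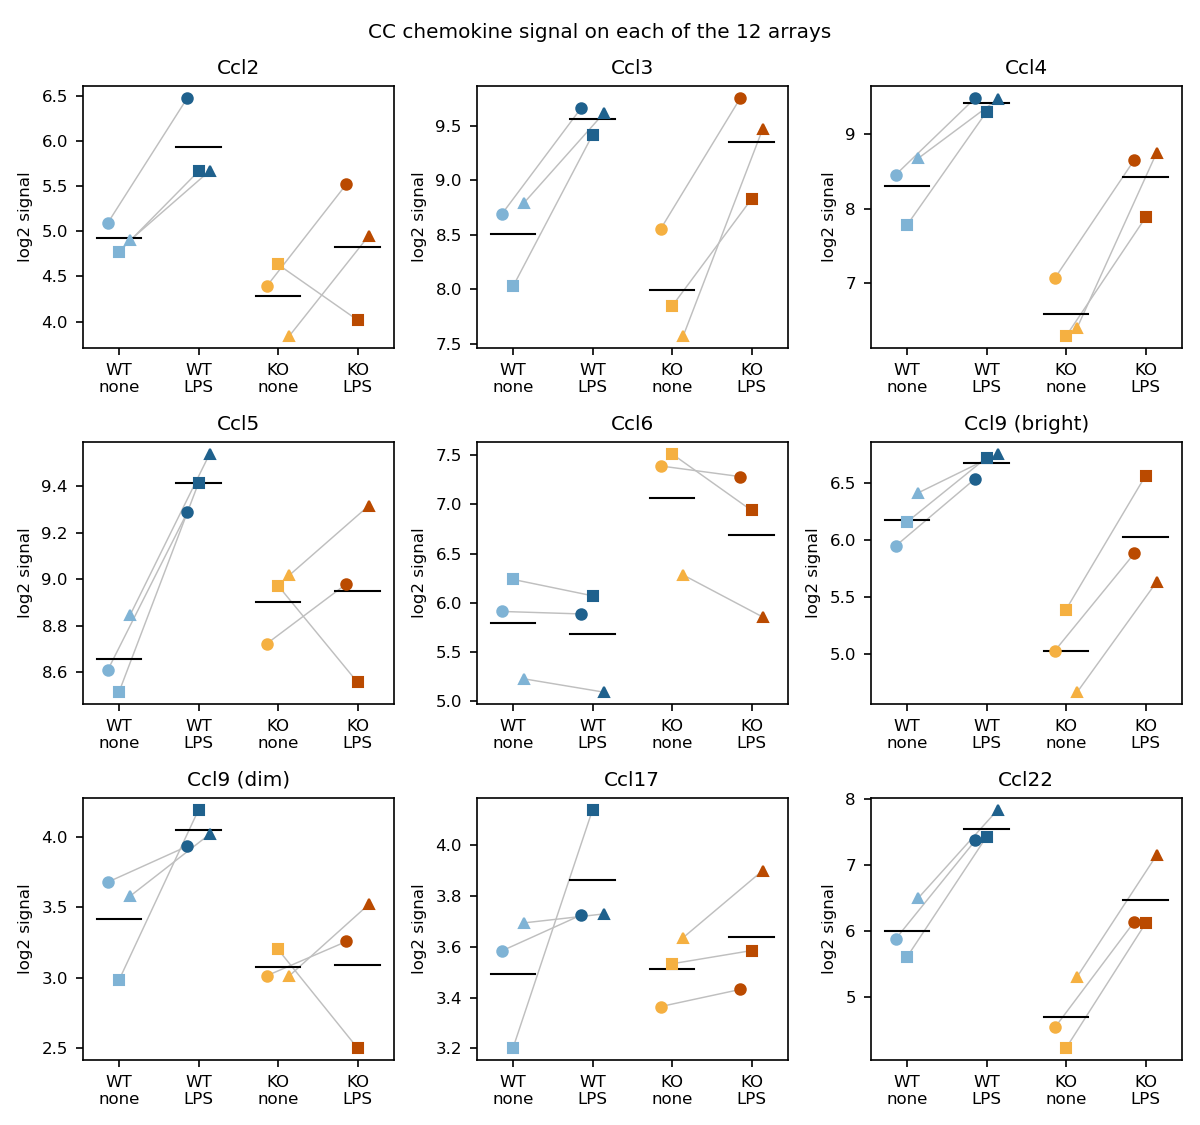
Log2 signal of the 9 CC chemokine probe sets on all 12 arrays, by group (circle, square and triangle are arrays 1, 2 and 3, grey lines join arrays of one number within a genotype, black bars are group means). Ccl4 was 6.29 to 7.07 in unstimulated KO arrays and 7.78 to 8.67 in unstimulated WT arrays.

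LPS raised Ccl4 and Ccl22 in KO cells, and these 2 of 9 probe sets passed, against a background of 0.266% called higher and 0.301% in either direction. In WT cells 0 of 9 passed by limma without a block, and 0.128% of all probe sets were called. Under an unadjusted p of 0.05 lay 7 of 9, and 1425 of all 28898. The LPS arrays lay above all unstimulated arrays for 8 of 9 probe sets in WT, against 6.78% of all, and for 4 of 9 in KO, against 5.58%. They lay below for 0 of 9, against 4.97% in WT and 7.87% in KO. The exception in WT was Ccl6, and the 4 in KO were Ccl3, Ccl4, the brighter Ccl9 probe set and Ccl22. Arrays of one number within a genotype deviated together from their group means (correlation 0.22 to 0.387 over the 6 pairs). With that number as a block, 3 of 9 passed in WT (Ccl3, Ccl4 and Ccl22), with 0.367% of all called, and 4 of 9 in KO (those and the brighter Ccl9 probe set), with 0.685% of all called. With the number as a random block, whose estimated correlation was 0.16, only Ccl22 passed in WT, and the same 4 as with the fixed block passed in KO. Without KO LPS array 2 and without the block, 1 of 9 passed in WT (Ccl5) and 3 of 9 in KO (Ccl3, Ccl4 and Ccl22), with 0.36% and 0.464% of all called. The difference between the LPS effects of the genotypes passed for 0 of 28898 probe sets in limma, with and without the block, with 1142 under an unadjusted p of 0.05. Among the 9 only Ccl5 lay under that unadjusted p.

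Ccl3 and Ccl4, the macrophage inflammatory proteins, draw T cells, NK cells and monocytes. Ccl4 log2 signals on arrays 1, 2 and 3 were 8.46, 7.78 and 8.67 in unstimulated WT cells and 7.07, 6.29 and 6.40 in unstimulated KO cells. With LPS they were 9.48, 9.30 and 9.47 in WT and 8.66, 7.88 and 8.75 in KO. The KO arrays lay below all WT arrays in both states, and LPS-treated KO arrays lay within the span of unstimulated WT arrays apart from array 3, which was above it. The unstimulated difference was -1.72 ± 0.27 (SE; 95% interval -2.31 to -1.12), 3.28-fold lower in KO, with an adjusted p of 0.0314 in limma. After LPS it was -0.99 ± 0.27 with an adjusted p of 0.162, or -0.71 without KO LPS array 2.

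The unstimulated Ccl4 call held in 4 of the 12 fits that each left out 1 array. It was lost without unstimulated WT array 1 or 3, LPS WT array 1, 2 or 3, or unstimulated KO array 1, 2 or 3. The difference then stayed between -1.96 and -1.53, and the limma adjusted p was 0.0567 to 0.188. Without KO LPS array 2 the adjusted p was 0.0034.

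LPS raised Ccl4 in KO cells by 1.84 ± 0.27, 3.59-fold, with a limma adjusted p of 0.0107. In pairs of one number the rise in KO was 1.59, 1.59 and 2.35. In WT the difference was 1.11 ± 0.27 with an adjusted p of 0.361, 0.0378 with the block and 0.144 with the random block, and the pair differences were 1.03, 1.52 and 0.79. The KO call was lost without unstimulated KO array 2 (1.69, adjusted p 0.0757) or 3 (1.75, adjusted p 0.0514). Without KO LPS array 2 the KO rise was 2.12 with an adjusted p of 0.0015. The KO effect exceeded the WT effect by 0.73 ± 0.39 (interval -0.11 to 1.57), which did not pass, and by 1.00 without KO LPS array 2.

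Ccl3 was 8.69, 8.03 and 8.79 in unstimulated WT, 8.56, 7.84 and 7.57 in unstimulated KO, 9.67, 9.42 and 9.61 in LPS-treated WT and 9.76, 8.83 and 9.47 in LPS-treated KO. The genotypes overlapped in both states, while LPS arrays lay above unstimulated arrays in each genotype. The KO minus WT difference was -0.51 ± 0.28 without LPS (interval -1.12 to 0.10, adjusted p 0.673) and -0.21 ± 0.28 with it (adjusted p 0.782). The sign of the second turned to 0.049 without KO LPS array 2.

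The Ccl3 LPS effect was 1.06 ± 0.28 in WT, with adjusted p 0.449, 0.0443 with the block and 0.204 with the random block. In KO it was 1.36 ± 0.28, with adjusted p 0.0887 and 0.0070 with the block. It passed also without unstimulated KO array 1 (1.64, adjusted p 0.0437) and without KO LPS array 2 (1.62, adjusted p 0.0136). The pair differences were 0.98, 1.39 and 0.82 in WT and 1.20, 0.98 and 1.90 in KO.

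The genotype differences of the neighbours Ccl3 and Ccl4 were set against each other within each array, a comparison chosen after the values were seen. The constant that each probe set adds cancels between groups. Ccl4 minus Ccl3 was -0.20 ± 0.07 (SD, n = 3) in unstimulated WT, -0.15 ± 0.03 in LPS-treated WT, -1.40 ± 0.21 in unstimulated KO and -0.92 ± 0.19 in LPS-treated KO. All 6 KO arrays lay at or below -0.72 and all 6 WT arrays at or above -0.25, and KO LPS array 2 was at -0.95, between the other LPS-treated KO arrays. The RefSeq spans of the 2 genes overlap by 755 bases. Neither the strands nor the places of the probes were compared there, so whether signal of one is read from the other was not tested.

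**Figure D3:**
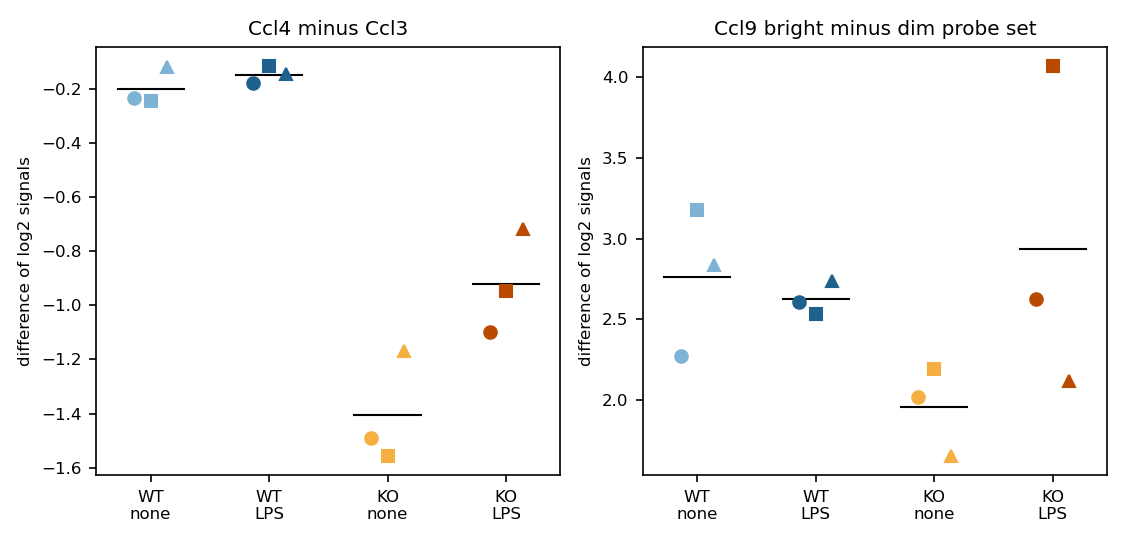
Differences of log2 signals within each array, Ccl4 minus Ccl3 (left) and the brighter minus the dimmer Ccl9 probe set (right), by group with arrays as points (circle, square, triangle for 1, 2, 3) and bars for means. The left panel shows KO arrays from -1.56 to -0.72 and WT arrays from -0.25 to -0.12.

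Ccl5, a T cell and monocyte attractant made by DCs and also by NK and T cells, was 8.61, 8.51 and 8.85 in unstimulated WT and 8.72, 8.97 and 9.02 in unstimulated KO. With LPS it was 9.29, 9.41 and 9.54 in WT and 8.98, 8.56 and 9.32 in KO. LPS arrays were above all unstimulated arrays in WT and overlapped with them in KO. The LPS difference was 0.76 ± 0.17 in WT (interval 0.38 to 1.13, adjusted p 0.243) and 0.05 ± 0.17 in KO (interval -0.33 to 0.42, adjusted p 0.964, or a difference of 0.24 without KO LPS array 2). In WT it passed without KO LPS array 2 (adjusted p 0.0267), where 0.36% of all probe sets were called.

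The pair differences of Ccl5 were 0.68, 0.90 and 0.70 in WT and 0.26, -0.42 and 0.30 in KO, and the KO pair below 0 was the one with array 2. The KO effect minus the WT effect was -0.71 ± 0.24 (interval -1.24 to -0.18), with an unadjusted p of 0.0126 and an adjusted p of 0.957. Without KO LPS array 2 it was -0.51. KO minus WT was 0.25 ± 0.17 without LPS (adjusted p 0.776) and -0.46 ± 0.17 with it (adjusted p 0.265, or a difference of -0.27 without that array). The genotypes overlapped in both states. NK cells also express Ccl5, and the mean signal of their markers was 3.79 to 4.42 in WT and 5.39 to 5.60 in KO arrays. Klrd1, Klrk1 and Prf1 contributed little to that difference without LPS. The part of NK cells in Ccl5 was not tested.

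Ccl2 draws monocytes through Ccr2. Its signals were 5.09, 4.77 and 4.90 in unstimulated WT, 4.39, 4.63 and 3.84 in unstimulated KO, 6.48, 5.66 and 5.67 in LPS-treated WT and 5.52, 4.02 and 4.95 in LPS-treated KO. The KO arrays lay below all WT arrays in both states, and LPS arrays lay above unstimulated arrays in WT only. KO minus WT was -0.63 ± 0.34 without LPS (adjusted p 0.659) and -1.11 ± 0.34 with it (adjusted p 0.190, or -0.70 as difference without KO LPS array 2). The LPS difference was 1.02 ± 0.34 in WT (adjusted p 0.751) and 0.54 ± 0.34 in KO (adjusted p 0.651, or a difference of 0.95 without array 2). The pair differences were 1.38, 0.89 and 0.77 in WT and 1.13, -0.62 and 1.11 in KO, array 2 being the one with a negative difference.

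Ccl22 and Ccl17, ligands of Ccr4 that attract regulatory T cells and other Ccr4-bearing T cells, did not show the same values. Ccl22 was 5.88, 5.61 and 6.50 in unstimulated WT and 4.54, 4.23 and 5.31 in unstimulated KO. With LPS it was 7.37, 7.43 and 7.84 in WT and 6.14, 6.12 and 7.15 in KO. In both states the KO arrays lay below all WT arrays, and in both genotypes LPS arrays lay above all unstimulated ones. The order of the means was LPS-treated WT (7.55 ± 0.25), LPS-treated KO (6.47 ± 0.59), unstimulated WT (6.00 ± 0.46) and unstimulated KO (4.69 ± 0.56), and arrays of the middle pair overlapped.

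LPS raised Ccl22 in KO cells by 1.78 ± 0.33, 3.44-fold (interval 1.07 to 2.49), with a limma adjusted p of 0.0463, or 0.0003 with the block. The call was lost in 9 of the 12 fits that left out 1 array, where the difference ran from 1.44 to 1.94 and the adjusted p from 0.0606 to 0.254. These left out unstimulated WT array 1 or 2, LPS WT array 1, 2 or 3, unstimulated KO array 1 or 2, or LPS KO array 1 or 3. Without KO LPS array 2 the rise was 1.96 with an adjusted p of 0.0219. Quantile normalization gave 1.75 with an adjusted p of 0.0692. In WT the difference was 1.55 ± 0.33 with adjusted p 0.163, 0.0013 with the block and 0.0441 with the random block, and the pair differences were 1.49, 1.82 and 1.34 in WT and 1.61, 1.89 and 1.85 in KO. The KO effect minus the WT effect was 0.23, with an interval of -0.77 to 1.23, and 0.41 without KO LPS array 2.

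The Ccl22 genotype difference was -1.31 ± 0.33 without LPS (interval -2.02 to -0.60, adjusted p 0.191) and -1.07 ± 0.33 with it (adjusted p 0.190). The difference after LPS passed without LPS KO array 3 (-1.42, adjusted p 0.0441) and was -0.90 without KO LPS array 2. With all 12 arrays and no block neither passed. Both passed with the number as a block across genotypes (limma adjusted p 0.0025 without LPS and 0.0075 with it), a pairing that the labels do not give.

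Ccl17 had low signals, from 3.20 to 3.69 in unstimulated WT, 3.36 to 3.64 in unstimulated KO, 3.72 to 4.14 in LPS-treated WT and 3.43 to 3.90 in LPS-treated KO. The genotypes overlapped in both states. KO minus WT was 0.02 ± 0.17 without LPS and -0.22 ± 0.17 with it, and LPS minus unstimulated was 0.37 ± 0.17 in WT and 0.13 ± 0.17 in KO. The differences that use KO LPS array 2 were -0.20 and 0.15 without it. None passed the adjusted threshold.

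**Figure D4:**
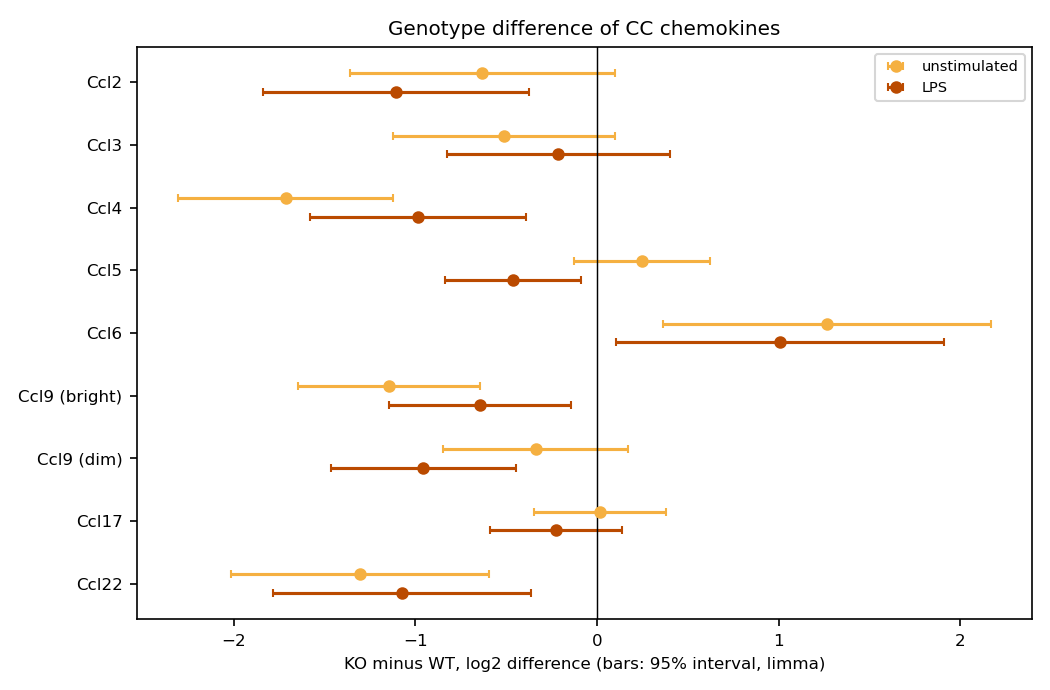
KO minus WT difference of log2 signal for each of the 9 probe sets, unstimulated and after LPS, as points with 95% intervals from limma. Ccl4 lay at -1.72 without LPS and -0.99 with it, and Ccl6 at 1.27 and 1.01, on the other side of 0.

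Ccl6 and Ccl9 are chemokines of mice, made largely by myeloid cells, that act through Ccr1. Ccl6 was 5.91, 6.24 and 5.23 in unstimulated WT, 7.39, 7.51 and 6.28 in unstimulated KO, 5.89, 6.07 and 5.09 in LPS-treated WT and 7.28, 6.94 and 5.86 in LPS-treated KO. The unstimulated KO arrays lay above all WT arrays, while after LPS KO array 3 was below WT arrays 1 and 2. KO minus WT was 1.27 ± 0.42 without LPS (interval 0.36 to 2.17, adjusted p 0.368) and 1.01 ± 0.42 with it (adjusted p 0.312, or 0.88 as difference without KO LPS array 2). LPS minus unstimulated was -0.11 ± 0.42 in WT and -0.37 ± 0.42 in KO (-0.49 without that array), and all 6 pair differences were negative, from -0.57 to -0.03.

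In each of the 4 groups the array numbered 3 had the lowest Ccl6 signal, and it had the lowest mean of the neutrophil markers as well. Over the 12 arrays Ccl6 correlated most with the neutrophil receptor gene Csf3r (r = 0.985), itself one of the neutrophil markers. The mean of those markers was higher on each KO array than on any WT array, and their part in Ccl6 was not tested.

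The brighter Ccl9 probe set was 5.95, 6.16 and 6.41 in unstimulated WT, 5.03, 5.39 and 4.67 in unstimulated KO, 6.54, 6.72 and 6.76 in LPS-treated WT and 5.88, 6.57 and 5.63 in LPS-treated KO. Its unstimulated KO arrays lay below all WT arrays. KO minus WT was -1.15 ± 0.23 without LPS (interval -1.65 to -0.65, adjusted p 0.0883), which passed without KO LPS array 2 (adjusted p 0.0083, with 0.851% of all probe sets called), and -0.65 ± 0.23 with LPS (adjusted p 0.249, or -0.91 without that array). LPS minus unstimulated was 0.50 ± 0.23 in WT (adjusted p 1.000) and 1.00 ± 0.23 in KO (adjusted p 0.138, or 0.0031 with the block). That KO difference was 0.73 without KO LPS array 2.

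The dimmer Ccl9 probe set gave other values. It was 3.68, 2.98 and 3.58 in unstimulated WT, 3.01, 3.20 and 3.01 in unstimulated KO, 3.93, 4.19 and 4.02 in LPS-treated WT and 3.26, 2.50 and 3.52 in LPS-treated KO, near the array medians. The unstimulated genotypes overlapped, with a difference of -0.34 ± 0.24, and the LPS-treated KO arrays lay below all LPS-treated WT arrays, with -0.96 ± 0.24 (adjusted p 0.120). The latter passed without LPS KO array 3 (-1.17, adjusted p 0.0370) and was -0.66 without KO LPS array 2. LPS minus unstimulated was 0.64 ± 0.24 in WT and 0.02 ± 0.24 in KO (0.31 without KO LPS array 2). Within an array the brighter exceeded the dimmer probe set by 1.65 to 3.18 on 11 arrays and by 4.07 on KO LPS array 2, and the correlation of the 2 over 12 arrays was 0.48.

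**Figure D5:**
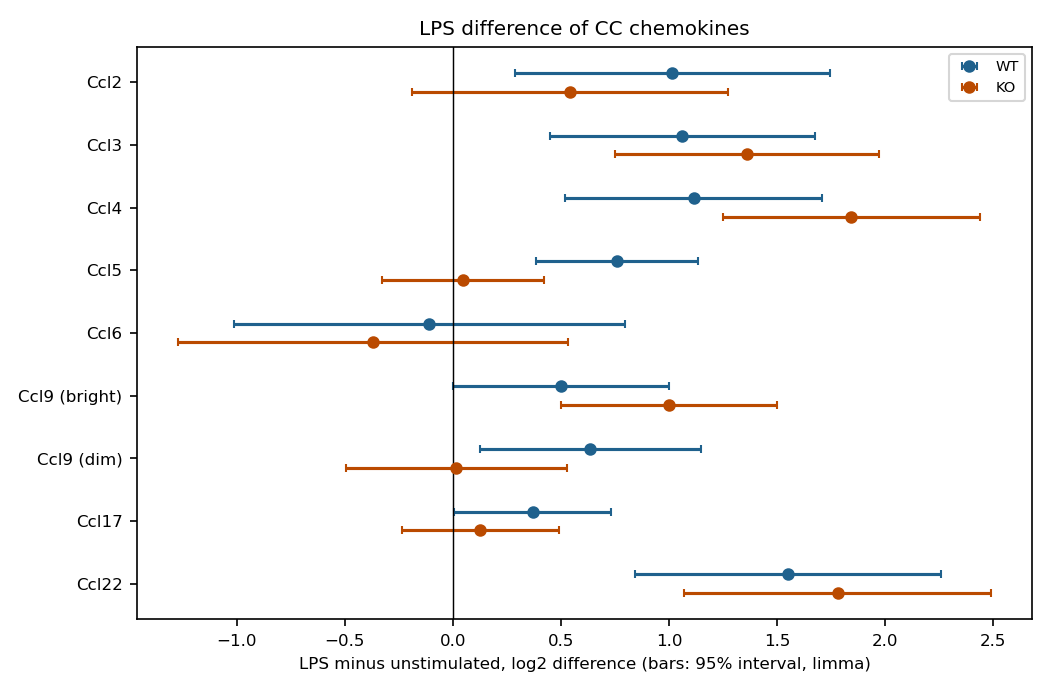
LPS minus unstimulated difference of log2 signal for each of the 9 probe sets, in WT and KO cells, as points with 95% intervals from limma. Ccl4 and Ccl22 lay at 1.84 and 1.78 in KO, and Ccl5 at 0.76 in WT and 0.05 in KO.

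The other genes of the pathway were described from lists. Of 13 other CC ligands 11 were measured, and with all arrays 0 passed in any of the 5 comparisons by limma, with 0 to 2 under an unadjusted p of 0.05. Ccl7, which like Ccl2 binds Ccr2, had group means of 3.51 ± 0.45 (unstimulated WT), 4.67 ± 0.66 (LPS-treated WT), 2.87 ± 0.41 (unstimulated KO) and 4.39 ± 0.35 (LPS-treated KO). Its LPS difference was 1.15 ± 0.33 in WT (adjusted p 0.580) and 1.51 ± 0.33 in KO (adjusted p 0.106). The KO difference of Ccl7 was 1.71 with an adjusted p of 0.0483 without KO LPS array 2. Of 15 receptors 12 were measured and 0 passed, with 1 to 4 under an unadjusted p of 0.05. Ccr1, the receptor of Ccl3, Ccl5, Ccl6 and Ccl9, differed by 1.13 ± 0.34 between unstimulated KO and WT cells (adjusted p 0.321). It was dim, with a mean of 1.93 ± 0.04 in unstimulated WT, below the array medians. In unstimulated KO it was 3.50, 3.49 and 2.18 on arrays 1, 2 and 3. Ccrl2, a non-signalling receptor, had LPS differences of 1.20 ± 0.35 in WT and 1.10 ± 0.35 in KO (adjusted p 0.597 and 0.317), the latter 1.00 without KO LPS array 2.

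Of 23 genes that carry the LPS signal or control chemokine transcripts, 21 were measured. LPS raised 1 in WT and 2 in KO. Tnfaip3, an NF-kB-induced inhibitor of NF-kB, rose by 0.96 ± 0.12 in WT (limma adjusted p 0.0069) and by 1.19 ± 0.12 in KO (adjusted p 0.0010). Zc3h12a, an RNase that degrades inflammatory transcripts, rose by 0.97 ± 0.14 in KO (adjusted p 0.0100). The Tnfaip3 call in WT was lost without unstimulated WT array 2 (0.96, adjusted p 0.0553) or LPS WT array 3 (0.96, adjusted p 0.0580), and the Zc3h12a call without unstimulated KO array 1 (0.90, adjusted p 0.0656). The KO rises were 1.32 for Tnfaip3 and 0.87 for Zc3h12a without KO LPS array 2. The list's median LPS difference was 0.29 in WT and 0.14 in KO, against 0.00 and -0.02 over all probe sets, and the KO median was 0.34 without KO LPS array 2, where 4 passed (these 2, Nfkbia and Irf4). None of the 21 passed between genotypes, with 2 without LPS and 6 with it under an unadjusted p of 0.05.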

How the data were processed

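RNA was purified on RNeasy columns, checked on a Bioanalyzer, amplified with WT-Ovation Pico and hybridised to Affymetrix arrays, per the labels' protocols. The authors deposited log2 signals normalised with RMA, per the submitters' processing notes, with no version given in the sources used here. Of 45141 probe sets, 104 controls, 551 with several symbols and 15588 without a symbol were left out, by the platform annotation, which can be old. The other 28898 were fitted with limma 3.58.1 (R 4.3.3, statmod 1.5.0) as 4 group means with eBayes (8 residual, 4.38 prior degrees of freedom). Adjusted p-values are Benjamini-Hochberg over all 28898 probe sets, and values after ± are SEs for differences and SDs for means. A probe set was called at an adjusted p under 0.05. Groups share control arrays across comparisons.

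The chemokines and all lists (131 entries, 113 measured) were chosen with earlier results of these data known. All probe sets of the chemokines were named. From the lists, called members and up to 4 others were named, the brightest first, and for each chemokine the 3 genes with the highest correlation over the 12 arrays. The 4 DC markers named were not the 4 brightest of their list. Other genes singled out (Ccl7, Ccr1, Ccrl2 and Prf1) were chosen after their values were seen. For list genes the brightest probe set was used.

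Arrays of one number correlated by 0.22 to 0.387 within a genotype and by -0.00 to 0.20 across genotypes in the same state (deviations from group means), so numbers were taken as pairs within a genotype only. Between different states across genotypes, LPS-treated WT array 3 and unstimulated KO array 3 reached 0.21, close to the lowest value within a genotype. The pairing comes from these correlations and not from the labels. Alternatives were blocks by number, each array left out, 1 probe set per gene, all probe sets, a dim filter, quantile normalization, median centring and eBayes with trend. On simulated data for unstimulated KO against WT, over 28898 probe sets, shifts of 0.5, 1, 2 and 3 were recovered in 20%, 82%, 100% and 100%, with 6 false calls. The simulated noise was independent between arrays, without pairs or an array that stands apart. These shares need not hold for the chemokines on the real arrays.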

Additional observations from a re-analysis of the deposited data

How the results depend on the processing

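With 3 arrays a group, single arrays decided many calls. Over the 12 fits that each left out 1 array, KO against WT without LPS called 0 to 2 of the 9 chemokine probe sets and 6 to 246 of all (with all arrays 1 and 47), and after LPS 0 to 2 and 2 to 511 (0 and 93). LPS called 0 to 1 and 11 to 104 in WT (0 and 37) and 0 to 3 and 42 to 134 in KO (2 and 87).

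The replicate block changed counts as well. Within genotype it called 3 chemokine probe sets and 106 of all in WT, and 4 and 198 in KO, as a random block 1 and 74 in WT and 4 and 154 in KO. Within genotype and without KO LPS array 2, a fit chosen after seeing the data, it called 6 and 337 in WT and 5 and 250 in KO. Across genotypes the labels link arrays by number alone. There the replicate block called 4 and 222 without LPS, 3 and 373 with LPS, 2 and 80 for LPS in WT and 135 of all for LPS in KO. Of the genotype differences, those of Ccl6 (limma adjusted p 0.0030 without LPS and 0.0105 with it) and Ccl22 passed in both states. That of the brighter Ccl9 probe set passed without LPS (0.0310), and that of Ccl4 passed also with LPS (0.0317). With 1 probe set per gene LPS called 20 in WT, and quantile normalization left 1 chemokine in KO. Other settings kept the counts within 1.5 times.

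The sign turned for small differences, none of them called, when 1 array was left out. Their ranges over the 12 fits were -0.13 to 0.12 for Ccl17 KO minus WT unstimulated (-0.0040 with quantile normalization), -0.41 to 0.049 for Ccl3 KO minus WT after LPS, and -0.39 to 0.19 for Ccl6 LPS in WT. For LPS in KO they were -0.14 to 0.24 for Ccl5, -0.76 to 0.048 for Ccl6, -0.20 to 0.31 for the dimmer Ccl9 probe set and -0.0027 to 0.23 for Ccl17. For the difference of the LPS effects (KO minus WT) they were -0.65 to 0.16 for Ccl6 and -0.11 to 0.54 for Ccl22, and Ccl2 was 0.10 with the replicate block and without KO LPS array 2. The neutrophil calls of Ngp, Camp and Lcn2 were lost with trend and robust eBayes (adjusted p 0.0621 to 0.0925). The cause of these changes was not tested.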

Other observations

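Genes with the pattern most like each chemokine were found over the 12 arrays, by Pearson's r among probe sets brighter than the median. The arrays share groups and 1 array that stands apart, so r is a description. Ccl4 was most like Cxcl10 (r = 0.990), an interferon-induced chemokine, then Slc41a1 (0.955) and Pim1 (0.943). Ccl3 was most like Ptgs2 (0.967), the inducible cyclooxygenase, then Slfn2 (0.962) and Nfkbia (0.960), an NF-kB inhibitor that NF-kB induces. Ccl22 was most like Slc41a1 (0.966), Rab21 (0.963) and Poglut1 (0.960).

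Ccl6 was most like Csf3r (0.985), the receptor of granulocyte colony-stimulating factor, then Trem3 (0.977) and Slfn4 (0.972). Ccl2 was most like Rsad2 (0.923), an interferon-induced antiviral gene, Snrpf (0.911) and Klf6 (0.908). Ccl5 was most like Ehd1 (0.909), Rbm12 (0.904) and Foxp4 (0.899), the brighter Ccl9 probe set like Ncoa7 (0.920), Fcf1 (0.906) and Ube2f (0.886), and Ccl17 like Ssr4 (0.839), Mios (0.814) and Hmces (0.811). Among the chemokines r was 0.92 for Ccl4 with Ccl22, 0.89 for Ccl3 with Ccl4 and -0.75 for Ccl6 with Ccl22.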
